A study of Aspergillus luchuensis with 6 samples.

Results

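The 554 short contigs whose names begin with BACL made up all but 3 of the 557 sequences in the deposited table of start tags, and they held 9753021 of its 20115405 tags, or 48.5%. The table stops inside a scaffold, so these shares are of its listed part and not of all starts in the genome. Every row of the table on such a contig was taken, which gave 23869 positions, of which 10929 had no tag in any library. The tags came from rice koji of Aspergillus luchuensis mut. kawachii, a white mould used to brew shochu. They were taken from a strain with a disrupted sirtuin D gene (sirD, n = 3 libraries) and a control strain labelled ctrl4 (n = 3 libraries). Each group was a single strain, and the sources used here do not give any allele or marker that both strains carry. The labels do not say whether replicates were separate cultures, so a p-value measures the spread among these libraries only, and that spread may be technical. The disrupted gene could not be located in the table, so the strain labels were not checked against it.

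Cap analysis of gene expression (CAGE) captures RNA at its 5′ cap, and the first base of a tag marks the base at which a transcript starts. Genes are often read from several neighbouring start bases, so nearby starts are grouped into clusters, and a contig in a draft genome is a stretch of assembled sequence that was not joined to a larger scaffold. Sirtuins use NAD to remove acyl groups from histones and other proteins, and loss of a histone deacetylase can change which genes of a fungus are transcribed. No annotation in the coordinates of the table was used, so no gene is named for any contig and no sequence is shown.

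The table listed 3336690 to 3580777 tags per sirD library and 3148498 to 3275687 per control library. Of these, 1525586 to 1842057 tags per sirD library and 1516700 to 1612544 per control library lay on the short contigs. Of the listed tags, the short contigs took 51.4%, 45.7% and 48.7% in sirD, against 48.2%, 46.7% and 50.004% in control. The ranges of the strains overlapped (48.6% ± 2.86 in sirD and 48.3% ± 1.68 in control, SD, n = 3 each, two-sided exact permutation test, p = 0.9). No such test of 3 libraries against 3 can give a p below 0.1, and the smallest adjusted p over the 5 shares tested here was 0.375.

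Tags were spread very unevenly over the contigs. A tag was found on 289 contigs, and 265 had rows without a tag. Among the 289, the median was 6 tags, and 159 contigs with 1 to 9 tags held only 419 tags between them. At least 100 tags lay on 59 contigs, at least 1000 on 27 and at least 10000 on 11. The first contig took 36.6% of all short-contig tags, the first 3 took 75.1% and the first 6 took 95.1%. Adding the 7th brought this to 98.4%, and the other 282 contigs with a tag shared 158162 tags. Contigs with a tag were not the longer ones by their listed positions. The highest listed position had a median of 531 for contigs with a tag and 623 for contigs without, and over contigs with a tag it had a Spearman rho of −0.13 with the number of tags, given as a description across contigs that share the same libraries.

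**Figure D1:**
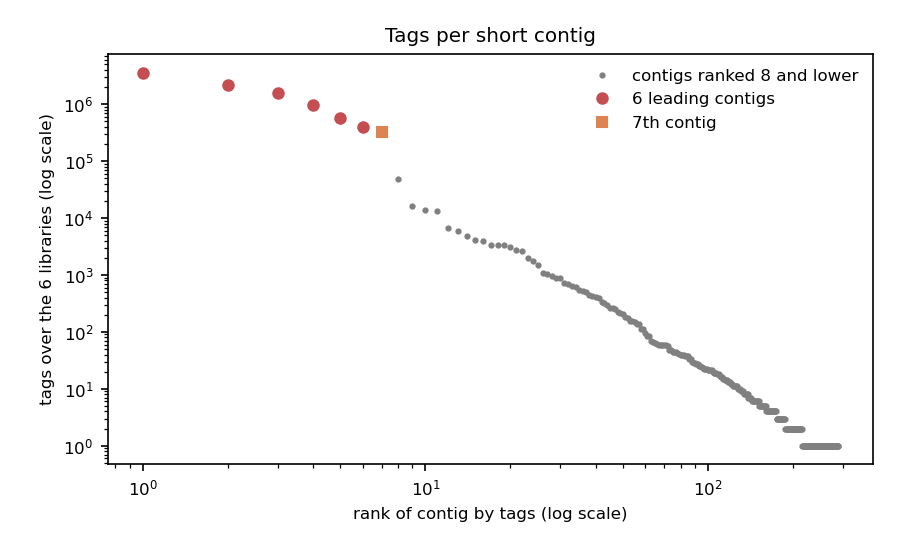
Tags summed over the 6 libraries (log scale) against the rank of each of the 289 short contigs with a tag (log scale). The 6 leading contigs and the 7th stand apart, with 320127 tags on the 7th and 48371 on the 8th.

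The 6 leading contigs and the 7th ranked in the same order in all 6 libraries, and none of them was called changed between strains. The leading contig, BACL01001099.1, had 731764, 526748 and 599486 tags in the sirD libraries, against 516051, 594441 and 604950 in the control libraries. BACL01001188.1 had 414111, 341700 and 374195 tags in sirD, against 334112, 339503 and 360205 in control. BACL01001136.1 had 281004, 267760 and 289820 in sirD, against 256225, 235623 and 255309 in control. The tag counts of BACL01001136.1 did not overlap between strains before scaling, but those of the other 2 did.

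BACL01001574.1 had 157865, 157518 and 197070 tags in sirD, against 174838, 143522 and 146465 in control. BACL01001245.1 had 105266, 96952 and 110856 in sirD, against 86909, 79822 and 95815 in control. BACL01001586.1 had 68439, 60855 and 71770 in sirD, against 66801, 59168 and 71794 in control. The lowest sirD library of BACL01001245.1 was above its highest control library in tags, while the ranges of BACL01001574.1 and BACL01001586.1 overlapped. The 7th contig, BACL01001369.1, just outside the leading 6, had 56731, 50110 and 58978 tags in sirD, against 48471, 51677 and 54160 in control, and its ranges overlapped too. For comparison, the 8th, BACL01000997.1, had 48371 tags over all 6 libraries where the 7th had 320127.

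The tags of each contig were summed and compared between strains in a table together with the clusters of the other sequences (edgeR quasi-likelihood test, trimmed-mean scaling, Benjamini-Hochberg adjustment over the whole table, called below 0.05). Log2 differences are sirD minus control. For the 7 leading contigs they lay between −0.09 and 0.14, with SE of 0.12 to 0.14 and edgeR adjusted p of 0.477 to 0.984, and none was called. The largest was that of BACL01001245.1, at 30861 ± 2372 CPM (tags scaled to a common library total) in sirD and 27965 ± 4212 CPM in control (SD, n = 3 each). The 6 leading contigs together took 95.5%, 95.1% and 95.1% of the short-contig tags in sirD, against 94.6%, 95.02% and 95.2% in control (95.2% ± 0.197 in sirD and 94.9% ± 0.287 in control, SD, n = 3 each, two-sided exact permutation test, p = 0.3).

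**Figure D2:**
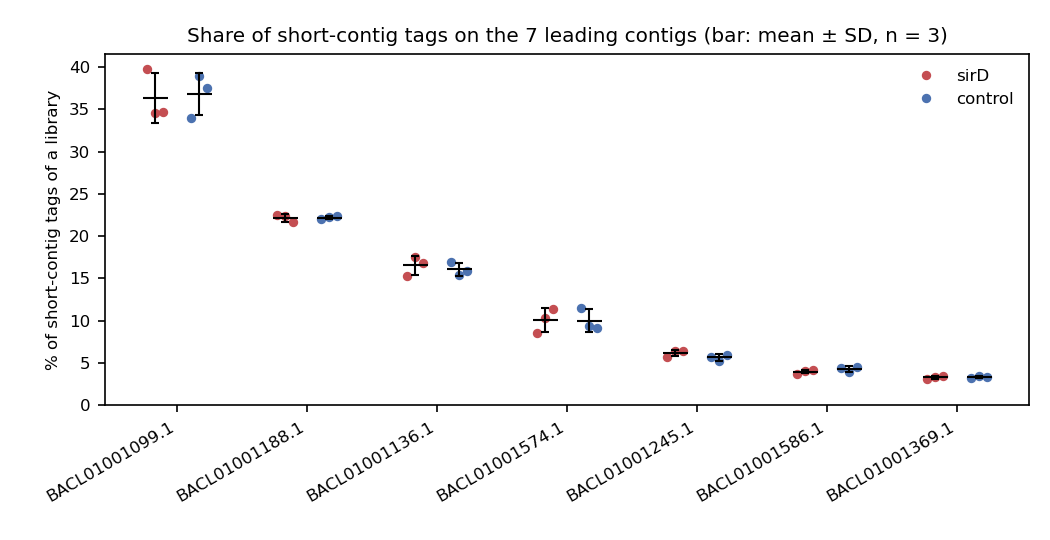
Share of a library's short-contig tags on each of the 7 leading contigs, with sirD left of control. Points are libraries and bars are mean ± SD (n = 3); the points of the strains overlap on every contig, from 36.3% in sirD and 36.8% in control on the first to 3.26% in sirD and 3.31% in control on the 7th.

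Starts on the leading contigs were nearly all on a single strand. On each of the 7, at least 99.99% of the tags came from its leading strand, which was the minus strand on all but BACL01001586.1. Of the 59 contigs with at least 100 tags, 42 had 90% or more on 1 strand, 27 of them on the minus and 15 on the plus strand. The minus strand took 95.9%, 95.6% and 95.4% of the short-contig tags in sirD, against 94.98%, 95.6% and 95.1% in control (two-sided exact permutation test, p = 0.3). Outside the leading 6 it took 90.9%, 90.6% and 91.7% in sirD, against 88.6%, 89.7% and 90.5% in control. Each sirD library lay above each control library there (91.1% ± 0.550 in sirD and 89.6% ± 0.941 in control, SD, n = 3 each, exact permutation test, p = 0.1, the smallest possible). With the 7th contig also set aside, the strains overlapped (71.8% ± 0.822 in sirD and 69.6% ± 2.16 in control, exact permutation test, p = 0.3).

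The leading contigs differed in how their starts were laid out. On BACL01001099.1, position 554 of the minus strand alone held 52.4% of the tags, with 700 positions carrying a tag. It took 59.2%, 49.8% and 47.6% of the contig's tags in sirD, against 45.7%, 56.3% and 53.3% in control, so the strains overlapped. BACL01001188.1 and BACL01001136.1 had no such dominant base, with at most 4.83% and 4.38% of their tags at a position, and it took 31 and 47 positions to reach 50% of their tags. On BACL01001586.1, position 85 of the plus strand held 38.6% of the tags, and on BACL01001245.1, position 402 of the minus strand held 26.7%. The most abundant cluster of each leading contig was between 67 bp (BACL01001574.1) and 635 bp (BACL01001099.1) wide and held 93.6% or more of its tags.

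**Figure D3:**
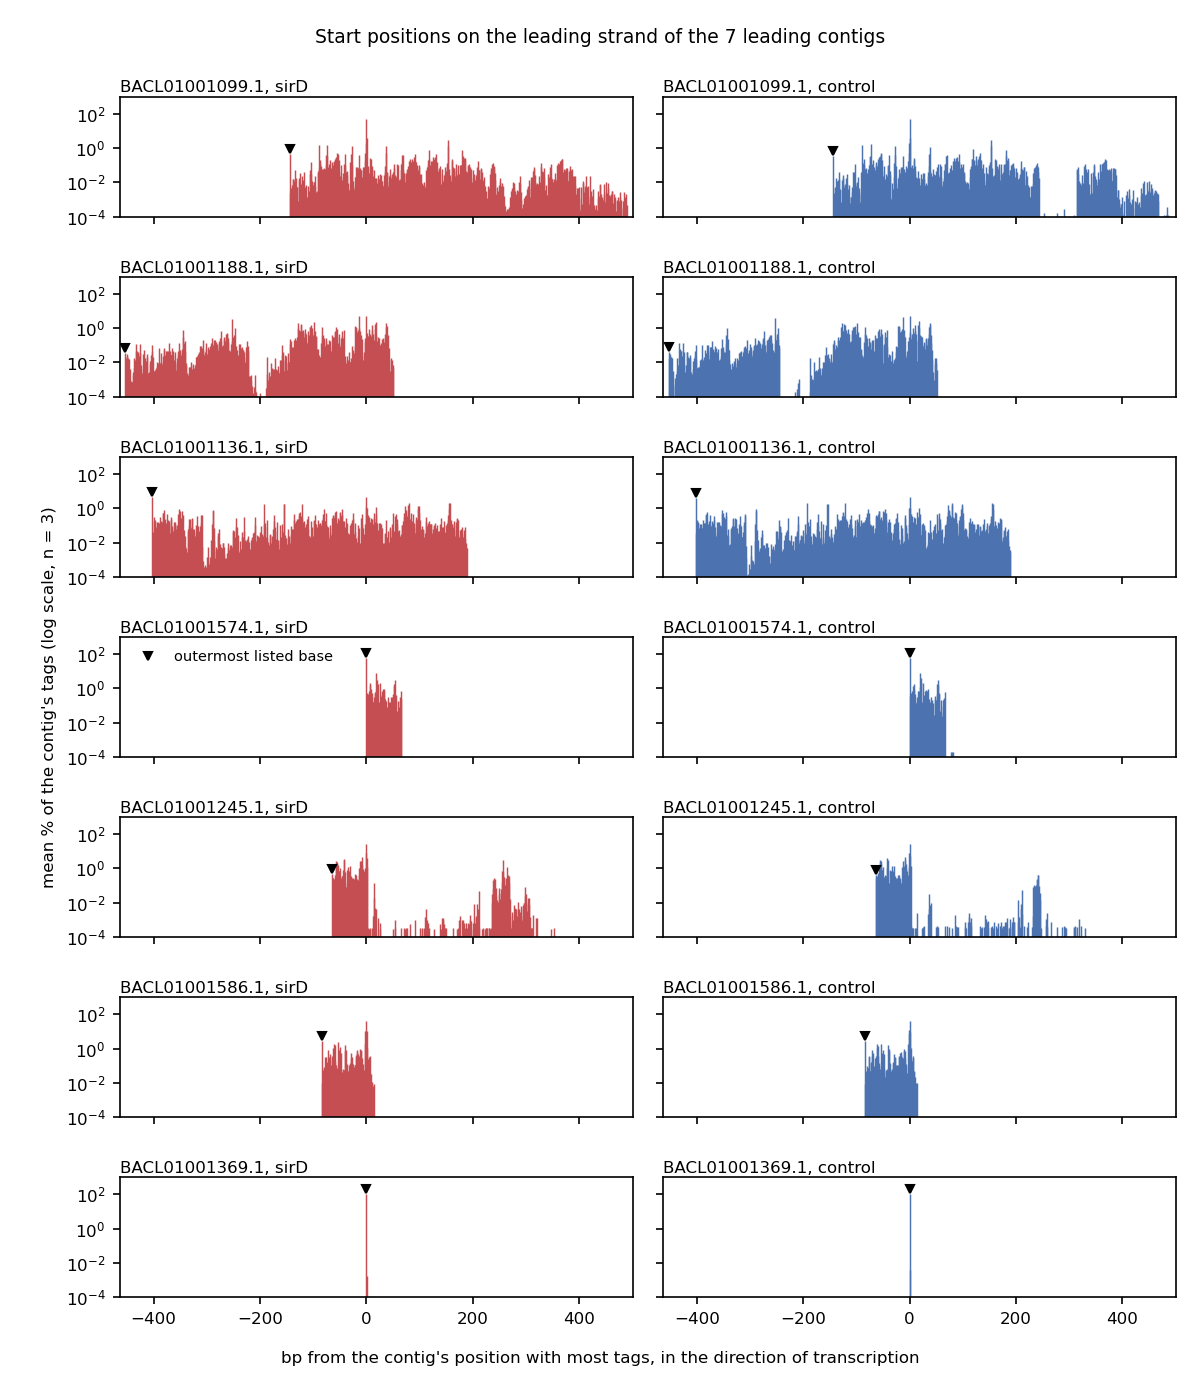
Mean share of a contig's tags at each start position of the leading strand (log scale, n = 3), with sirD on the left and control on the right, against the distance in bp from the position with most tags. The triangle is the outermost listed base; on BACL01001574.1 and BACL01001369.1 it is also the position with most tags, and the gap in the control profile of BACL01001099.1 lies opposite starts that in sirD came mainly from 1 or 2 of the 3 libraries.

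Several of the most abundant starts lay on the outermost base listed for a contig, so that no position upstream of the start was listed. A minus-strand edge start is taken here as a tag at the highest position listed for the contig, because the contig lengths themselves were not at hand. On BACL01001369.1, 320117 of 320127 tags lay at minus-strand position 313, its highest listed position, and the contig had tags at only 3 positions. On BACL01001574.1, minus-strand position 134 was also the highest listed and held 57.3% of the tags. On BACL01001136.1 the highest listed position, 622, held 67498 tags and ranked second after position 220 with 69401. Over the leading 6 contigs, starts on the highest listed minus-strand base took 5.96%, 7.24% and 8.25% of the tags in sirD, against 7.83%, 6.32% and 6.17% in control.

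Outside the leading 6, 67.3% of the tags lay on the highest listed base of the minus strand, and nearly all of these were the tags of BACL01001369.1. Outside the leading 7, the share was 1.53%, 1.62% and 1.80% in sirD, against 0.607%, 0.956% and 0.730% in control. All 3 sirD libraries were above all 3 control libraries (1.65% ± 0.134 in sirD and 0.764% ± 0.177 in control, SD, n = 3 each, exact permutation test, p = 0.1, the smallest possible). Of the 1872 tags behind these shares, 1074 lay at the highest listed base of BACL01001283.1, described below among the contigs that rose. Over the last 5 listed positions the strains overlapped (4.75% ± 0.353 in sirD and 5.07% ± 0.669 in control, exact permutation test, p = 0.7).

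At the left edge, plus-strand positions 1 to 5 took 1.70%, 1.87% and 1.49% of the tags outside the leading 6 in sirD, against 1.00%, 1.34% and 1.51% in control. The highest control library was above the lowest sirD library (1.69% ± 0.188 in sirD and 1.28% ± 0.258 in control, SD, n = 3 each, exact permutation test, p = 0.2). Without the 7th contig the same tags made up 5.33% ± 0.433 in sirD and 3.86% ± 1.27 in control (p = 0.2 by the same exact test). Over positions 1 to 20, outside the leading 6, the strains did not overlap, so the overlap depends on the window. The share there was 1.97% ± 0.205 in sirD and 1.51% ± 0.314 in control (exact permutation test, p = 0.1, the smallest possible). Of the 7091 tags at positions 1 to 5, 5479 lay on position 1 of BACL01001444.1, the 12th contig by tags.

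Changes between strains were found on the contigs outside the leading 6. Start positions of a strand no more than 20 bp apart, each with at least 2 tags in all, were joined, which gave 794 clusters on 172 short contigs, 397 of them a single position. The filter on low counts left 98 clusters on 54 contigs, which held 99.9% of the short-contig tags. It asks for enough tags in as many libraries as a strain has, so a sparse cluster can pass through a single strain. For such clusters, being tested and being called were not independent. The called clusters of BACL01000904.1 at 1 to 33 and BACL01000888.1 at 1006 to 1118 are among them. So are those of BACL01000586.1 at 725 to 801 and 1899 to 1955. Others with this limit are named where they are described below. Of these 98, 25 were called changed (25.5%), against 24.5% of the 4083 clusters tested in the whole table. In sirD, 10 were higher, on 9 contigs (10.2%, against 10.4% in the whole table), and 15 were lower, on 12 contigs (15.3%, against 14% in the whole table). The share called on the short contigs was thus near that of the table as a whole. The libraries of the strains did not overlap in 40 of the 98 (40.8%, against 39.7% in the whole table), and this held for 24 of the 25 called. The median log2 difference was −0.17 for the 98 and −0.00312 for all clusters tested. None of the 7 tested clusters on the leading 6 contigs was called.

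Leaving the leading 6 contigs out of the features, the library totals and the scaling factors made little difference to these calls. All 25 clusters were called both ways, and no other short-contig cluster was called without the 6, where 24.7% of all clusters passed. Every log2 difference on the other contigs moved up by 0.02 to 0.03, and the median of all clusters was 0.0205 in place of −0.00312. The contig sums behaved alike, with 22 contigs called in either scaling. With the leading 6 included, 71 contigs were tested. These 22 (31.0%, against 24.7% of the features in that table) comprised 9 that were higher, where 10.5% of the features were higher, and 13 that were lower, where 14.2% were lower. The contigs too sparse to be tested numbered 483, of which 218 had a tag.

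The most abundant contig that changed was BACL01000997.1, the 8th by tags. Its minus-strand cluster at 839 to 945 had 5375, 5331 and 5920 tags in sirD, against 13553, 7342 and 7678 in control. Control library 1 stood above the other 2 control libraries, and no sirD library reached any of them. The cluster fell 1.84-fold, to 1640 ± 107 CPM in sirD, against 3021 ± 1049 CPM in control (SD, n = 3 each, log2 −0.88, SE 0.18, edgeR adjusted p = 0.00114). A second cluster of that contig, on the plus strand at 1 to 9 with 95.0% of its tags on position 1, had 16, 11 and 10 tags in sirD, against 18, 12 and 13 in control, and was not called (edgeR adjusted p = 0.591).

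BACL01000586.1, the 9th contig, was also lower as a sum, but not in each of its clusters. Its plus-strand cluster at 1477 to 1668 had 2249, 1405 and 1448 tags in sirD, against 3228, 2039 and 1997 in control. This was the only called cluster whose strains overlapped, and in tags the first sirD library lay above the lowest 2 control libraries. The level was 504 ± 145 CPM in sirD and 768 ± 206 CPM in control (SD, n = 3 each, log2 −0.61, SE 0.19, edgeR adjusted p = 0.0249), and the call was lost without sirD 2, sirD 3 or control 1, at log2 differences of −0.48 to −0.38. The same contig held the lower clusters at 725 to 801 of the minus strand (log2 −2.08) and at 1899 to 1955 of the plus strand (log2 −1.47), with 75 and 72 tags in all. The cluster at 1899 to 1955 lost its call without sirD 2, sirD 3, control 1 or control 3, at −1.46 to −1.15. Both of these sparse clusters could pass the filter on low counts only through their control libraries. Their direction thus adds no separate support to the fall of the contig.

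BACL01000914.1, the 10th contig, rose. Its minus-strand cluster at 956 to 1234 had 3805, 2856 and 3646 tags in sirD, against 1381, 1057 and 959 in control. The lowest sirD library had more than the highest control library, and the 2.83-fold difference carried the smallest adjusted p among the clusters that rose (log2 1.502, SE 0.16, edgeR adjusted p = 1.38e-06). Upstream is to the right on this strand, and a weaker cluster downstream, at 786 to 880, had 21, 29 and 31 tags in sirD, against 6, 6 and 5 in control (log2 2.13, SE 0.38, edgeR adjusted p = 3.80e-04). This weaker cluster could pass the filter on low counts only through its sirD libraries. Its direction thus adds no separate support to the rise of the main cluster.

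The next 4 contigs by tags followed with differences of at most 0.56 on the log2 scale as sums. BACL01000888.1, the 11th, had 2001, 2113 and 2043 tags in sirD, against 2411, 2393 and 2163 in control, and did not pass as a whole (log2 −0.28, SE 0.12, edgeR adjusted p = 0.108) although its strains did not overlap. A small plus-strand cluster on it, at 1006 to 1118, was lower with 7, 9 and 4 tags in sirD, against 24, 15 and 15 in control (log2 −1.52, edgeR adjusted p = 0.0108). That call was lost without sirD 3 or control 1, at −1.29 to −1.24. The cluster could pass the filter on low counts only through its control libraries.

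BACL01001444.1, the 12th, started almost wholly at its left edge. The plus-strand cluster at 1 to 18 held 99.3% of its tags, 84.0% of them on position 1, and had 1401, 1380 and 1238 tags in sirD, against 565, 885 and 1055 in control. It rose to 396 ± 25.5 CPM in sirD, against 268 ± 91.6 CPM in control (SD, n = 3 each, log2 0.56, SE 0.19, edgeR adjusted p = 0.0319). Control library 1 was lowest by far, and the call was lost without it, at 0.32, and also without sirD 1, sirD 2 or control 2, at 0.55 to 0.58.

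BACL01001254.1, the 13th, had 1091, 916 and 876 tags in its minus-strand cluster at 359 to 447 in sirD, against 489, 642 and 718 in control (log2 0.53, SE 0.16, edgeR adjusted p = 0.0228). Its strains did not overlap, but the sum over the contig was not called (edgeR adjusted p = 0.0728), and the cluster lost its call without sirD 1, control 1 or control 2, at 0.36 to 0.53. BACL01001141.1, the 14th, had 886, 869 and 894 tags in its minus-strand cluster at 448 to 557 in sirD, against 643, 701 and 561 in control. This was the smallest called difference (log2 0.37, SE 0.13, edgeR adjusted p = 0.0449), and it was lost when any 1 of the 6 libraries was left out, at 0.33 to 0.43.

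**Figure D4:**
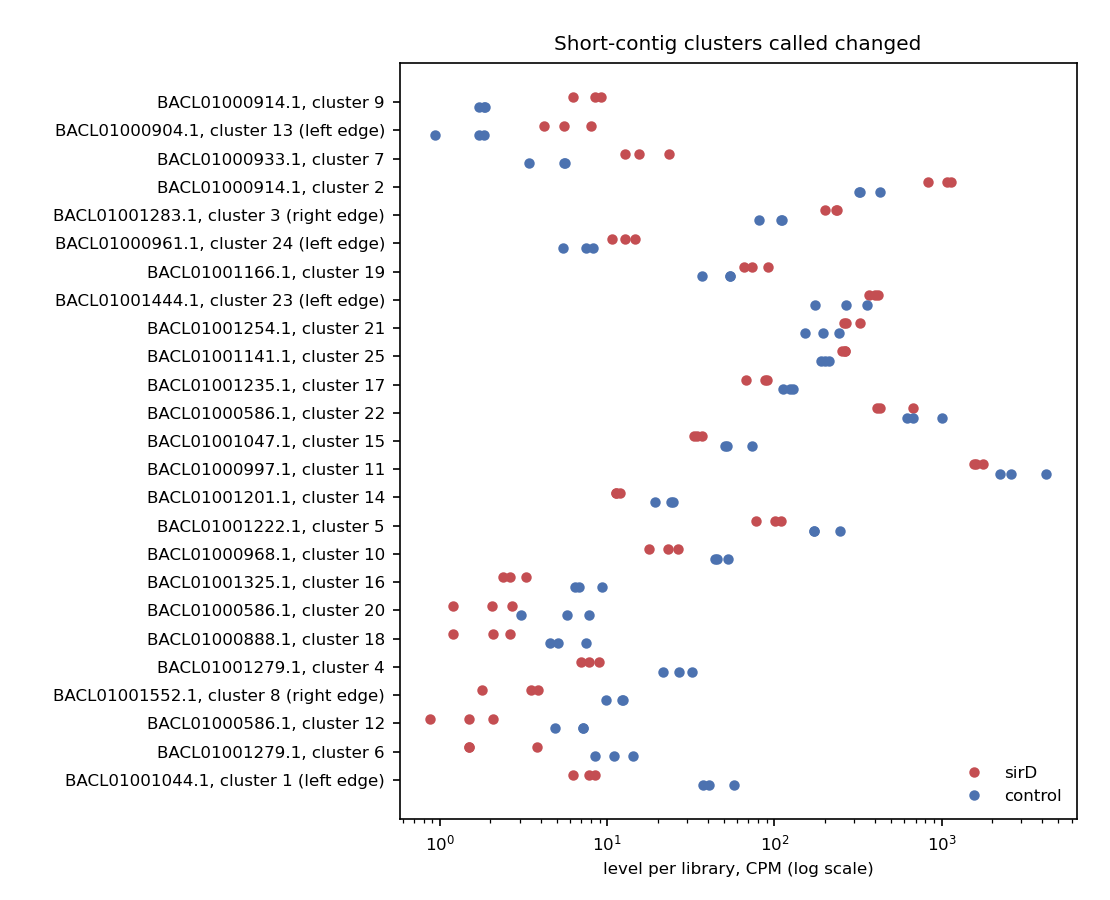
Level in each library (CPM, log scale) of the 25 short-contig clusters called changed, from the highest log2 difference at the top to the lowest at the bottom, with sirD drawn above control in each row. Clusters are numbered in order of adjusted p, and those whose highest position is within 5 bp of a listed edge are marked; 10 lie to the right and 15 to the left of their control libraries, with overlap only in cluster 22.

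Among the remaining higher clusters, the minus-strand cluster of BACL01001283.1 at 118 to 409 was the most abundant. It had 792, 686 and 791 tags in sirD, against 353, 364 and 239 in control, without overlap. It rose 2.22-fold, to 224 ± 20.5 CPM in sirD, against 101 ± 16.8 CPM in control (SD, n = 3 each, log2 1.15, SE 0.15, edgeR adjusted p = 1.85e-05). Position 409, the highest listed for the contig, held 33.3% of its tags. BACL01000933.1 rose 3.51-fold in its minus-strand cluster at 55 to 199, with 78, 53 and 43 tags in sirD, against 18, 18 and 10 in control (edgeR adjusted p = 2.33e-04). The other 3 higher clusters were weaker in tags or size. The left-edge cluster of BACL01000904.1 at 1 to 33 had 14, 19 and 27 tags in sirD, against 3, 6 and 5 in control (log2 1.97, edgeR adjusted p = 0.00265). The left-edge cluster of BACL01000961.1 at 1 to 119 had 43, 50 and 36 in sirD, against 24, 27 and 16 in control (log2 0.84, edgeR adjusted p = 0.0320). The minus-strand cluster of BACL01001166.1 at 34 to 281 had 306, 225 and 248 in sirD, against 118, 179 and 159 in control (log2 0.67, edgeR adjusted p = 0.0115). The strains did not overlap in any of these 3. BACL01000961.1 lost its call without sirD 1, sirD 2, control 1 or control 3, at 0.68 to 0.87, and BACL01001166.1 without sirD 1 or control 1, at 0.49 to 0.55.

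The strongest fall was at a left edge. The plus-strand cluster of BACL01001044.1 at 1 to 35, with 96.2% of its tags on position 1, had 21, 29 and 26 tags in sirD, against 184, 123 and 119 in control. It fell 5.99-fold (log2 −2.58, SE 0.24, edgeR adjusted p = 3.75e-07), and the contig held 71.2% of its tags there. BACL01001279.1 fell on both strands, with 30, 24 and 26 tags in sirD, against 103, 71 and 79 in control in the minus-strand cluster at 70 to 199. Its plus-strand cluster at 305 to 343 had 5, 13 and 5 tags in sirD, against 46, 36 and 25 in control. The log2 differences were −1.76 and −2.30, with edgeR adjusted p of 2.84e-05 and 2.12e-04. The plus-strand cluster could pass the filter on low counts only through its control libraries. Its direction thus adds no separate support to the fall on the minus strand.

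Among the other lower clusters, that of BACL01001222.1 held the most tags. This plus-strand cluster at 267 to 439 had 260, 345 and 369 tags in sirD, against 794, 564 and 510 in control (log2 −1.04, SE 0.17, edgeR adjusted p = 1.63e-04). BACL01001235.1 had 296, 310 and 229 tags at 34 to 210 of the minus strand in sirD, against 417, 406 and 333 in control (log2 −0.57, edgeR adjusted p = 0.00966). The strains did not overlap on either contig, and the call on BACL01001235.1 was lost without sirD 3, at −0.43. BACL01001047.1 had 115, 114 and 124 tags at 527 to 611 of the plus strand in sirD, against 238, 172 and 148 in control (log2 −0.76, edgeR adjusted p = 0.00454). Its largest cluster, at 650 to 780, was not called (log2 0.30, edgeR adjusted p = 0.164), nor was the sum over the contig (log2 −0.11, edgeR adjusted p = 0.616). BACL01000968.1 had 60, 79 and 89 tags at 50 to 403 of the minus strand in sirD, against 145, 144 and 156 in control (log2 −1.07, edgeR adjusted p = 4.19e-04). In the called clusters of both contigs the sirD libraries lay below the control libraries. The other 3 were BACL01001201.1 at 41 to 160 (log2 −0.98), BACL01001325.1 at 133 to 209 (log2 −1.43) and BACL01001552.1 at 78 to 142 (log2 −1.90). They had 331, 99 and 140 tags over the 6 libraries, and in each the sirD libraries lay below the control libraries. BACL01001325.1 had 11, 9 and 8 tags there in sirD, against 30, 21 and 20 in control. BACL01001552.1 had 6, 12 and 13 in sirD, against 40, 40 and 29 in control. In both, the sirD libraries alone could not have passed the filter on low counts, so being tested and being called were not independent.

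As sums over the contig, BACL01001097.1 also rose, and none of its clusters had enough tags to be tested. It had 20, 14 and 19 tags in sirD, against 3, 2 and 0 in control, so its log2 difference of 3.22 rests on few control tags (SE 0.58, edgeR adjusted p = 3.68e-04). The contig could pass the filter on low counts only through its sirD libraries. BACL01001304.1, BACL01001459.1 and BACL01001286.1 likewise had no cluster that could be tested. They were lower as sums, with log2 differences of −1.19, −1.27 and −1.07 and edgeR adjusted p of 0.0201, 0.0350 and 0.0395. They had only 149, 59 and 83 tags in all. In sirD, BACL01001459.1 had 7, 5 and 6 tags and BACL01001286.1 had 7, 11 and 10. On both of these contigs the sirD libraries alone could not have passed the filter on low counts. On BACL01001304.1 control library 3 stood highest, with 49 tags. Sums on BACL01000586.1, BACL01001444.1 and BACL01001141.1 lost their calls when 1 library was left out, at −0.46 to −0.36 without sirD 2, sirD 3 or control 1, at 0.32 to 0.58 without sirD 1, sirD 2, control 1 or control 2, and at 0.33 to 0.42 without any 1 of the 6.

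Edge starts were found among both directions. Of the 9 tested clusters with their highest position at plus-strand position 1 to 5, 3 were higher, 1 was lower and 5 were not called. Of the 5 with their highest position on the minus strand within 5 bp of the highest listed position, 1 was higher (BACL01001283.1), 1 was lower (BACL01001552.1) and 3 were not called. The last 3 include BACL01001574.1 and BACL01001369.1, at log2 differences of 0.04 and −0.00460. The other, BACL01001372.1, had 91, 83 and 102 tags in sirD, against 90, 80 and 104 in control. Called clusters made up 6 of 14 with an edge peak (42.9%) and 19 of 84 without (22.6%), and this difference was not tested.

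The 3 left-edge clusters with most tags that were not called were those of BACL01001197.1, BACL01001580.1 and BACL01000997.1. BACL01001197.1 had 42, 47 and 34 tags at 1 to 93 in sirD, against 75, 47 and 40 in control (edgeR adjusted p = 0.182). BACL01001580.1 had 30, 22 and 23 at 1 to 91 in sirD, against 32, 36 and 27 in control (edgeR adjusted p = 0.279). The strains overlapped on the first of these and, after scaling, not on the second. BACL01000910.1 and BACL01001295.1 were the other 2, with 60 and 58 tags in all.

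Within the leading contigs, some stretches of starts were full of tags in some libraries and almost empty in others. They were found by a rule chosen after values were seen and get no test. Positions with at least 50 tags in all and with 0 or 1 tag in at least 2 libraries were joined when 5 bp or less apart and filled in the same libraries, and stretches of at least 500 tags are given. In BACL01001245.1, minus-strand positions 133 to 153 had 4140, 11043 and 10822 tags in sirD, against 6, 5 and 2 in control. This was the only stretch that was filled in all libraries of a strain and nearly empty in the other strain. Positions 156 to 166 of the same contig had 3408, 1 and 4 tags in sirD, against 1, 3 and 4688 in control, so sirD 1 and control 3 shared them. Positions 167 to 169 had 0, 1 and 0 in sirD, against 2, 2 and 822 in control. Positions 96 to 104 had 0, 585 and 1 in sirD and none in any control library. Near these stretches position 190 was even, with 61, 47 and 51 tags in sirD, against 50, 50 and 51 in control.

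The same was seen on 3 other contigs, with other libraries filled. In BACL01001188.1, positions 304 to 326 had 9006, 1 and 7190 tags in sirD, against 1, 0 and 0 in control. Positions 231 to 261 had 4858, 0 and 1 in sirD, against 3367, 0 and 0 in control, and positions 483 to 499 had 3291, 714 and 0 in sirD, against 2401, 1153 and 3 in control. The filled libraries thus differed between neighbouring stretches of that contig. In BACL01001099.1, positions 264 to 282 had 10, 3 and 1695 tags in sirD, against 3, 6 and 6 in control. Positions 128 to 164 had 0, 580 and 3057 in sirD, against 567, 0 and 2 in control, and positions 103 to 118 had 1, 122 and 796 in sirD, against 1069, 0 and 1 in control. Apart from positions 133 to 153 of BACL01001245.1, each of the stretches was filled in at least 1 library of a strain and nearly empty in another library of that strain.

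**Figure D5:**
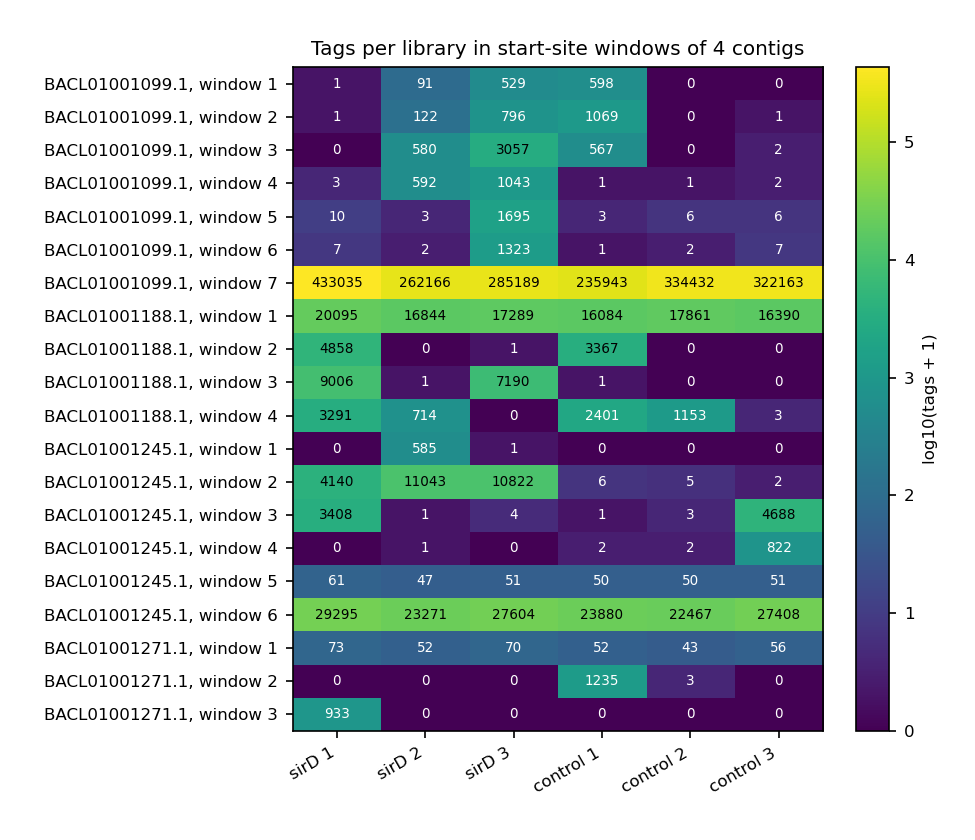
Tags per library (number in each cell, colour on a log10 scale of tags plus 1) in start-site windows of 4 short contigs, with the 3 sirD libraries left of the 3 control libraries and windows numbered along each contig. Most windows are filled in some libraries and at or near 0 in others of the same strain, whereas the most abundant position of each contig outside such stretches, and window 5 of BACL01001245.1 with 47 to 61 tags, are filled in every library.

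BACL01001271.1, the 21st contig by tags, held such stretches too. Position 381 had 933 tags in sirD 1 and 0 in each of the other 5 libraries. Positions 185 to 187 had 0, 0 and 0 tags in sirD, against 1235, 3 and 0 in control. Position 135 was even, with 73, 52 and 70 tags in sirD, against 52, 43 and 56 in control. A count of 0 among the 81 tags of sirD 2 on this contig allows a share of up to 3.70%, counting error only, where position 381 took 90.2% in sirD 1. The contig total was 1034, 81 and 206 tags in sirD, against 1307, 82 and 84 in control, and it was not called (edgeR adjusted p = 0.868).

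Counted over all positions with at least 50 tags, 191 of 2122 on the short contigs (9.001%) had 0 or 1 tag in 2 or more libraries, against 13 of 21833 on the other sequences (0.0595%). Among positions of 50 to 1000 tags the counts were 177 of 1145 (15.5%) and 13 of 20627 (0.0630%). The 191 positions lay on 5 contigs, with 76 on BACL01001099.1, 68 on BACL01001188.1, 41 on BACL01001245.1, 5 on BACL01001271.1 and 1 on BACL01000914.1. They held 72474 tags, or 0.743% of those on the short contigs. The part of library preparation and of mapping in these stretches was not tested.

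Start-site usage, the division of a cluster's tags among its positions, was compared by diffSpliceDGE of edgeR. Of 36 short-contig clusters with several tested positions, 2 were called (5.56%, against 1.79% of the 1286 clusters tested in the whole table), and both hold stretches of the kind above. The first was the minus-strand cluster of BACL01001245.1 at 80 to 264 (edgeR diffSpliceDGE adjusted p = 3.31e-09 for the cluster as a whole). In it, position 144 had 1567, 4010 and 4002 tags in sirD, against 2, 3 and 1 in control. Position 138 had 564, 1533 and 1505 in sirD and no tag in control. Both positions could pass the filter on low counts only through their sirD libraries, so being tested and being high in sirD were not independent. Positions 156 to 169, filled in sirD 1 and control 3 or in control 3 alone, did not pass it. The filter on low counts left 21 positions of this cluster, and they held 54.4%, 91.5% and 99.04% of its tags in sirD, against 63.5%, 62.7% and 1.09% in control. The call thus covers 61 of the 5614 tags of control 3 in the cluster, and no shift of the mean start is given. The cluster as a whole had 7715, 12081 and 10938 tags in sirD, against 104, 118 and 5614 in control, and its level was not called (log2 2.20, SE 0.85, edgeR adjusted p = 0.0650). With no filter on low counts the usage call was lost (edgeR diffSpliceDGE adjusted p = 0.866). It was also lost without sirD 2, sirD 3, control 1 or control 2, with edgeR diffSpliceDGE adjusted p of 0.880 to 1.00.

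The second was the cluster of BACL01001099.1 at 64 to 698 (edgeR diffSpliceDGE adjusted p = 2.84e-04). Over its 465 tested positions the mean start was 520 in sirD and 519 in control. Position 615 had 542, 545 and 2096 tags in sirD, against 642, 449 and 457 in control, so sirD 3 stood alone. The call was lost without sirD 2 (edgeR diffSpliceDGE adjusted p = 0.368). Leaving out a library also moved usage calls to other clusters. Without sirD 1 or any 1 of the control libraries, the cluster of BACL01001245.1 at 286 to 466 was called, which had an edgeR diffSpliceDGE adjusted p of 1.00 over all 6 libraries. Without sirD 2 the cluster of BACL01001188.1 at 31 to 535 was called, at 0.0264, where all 6 libraries gave 1.00.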

How the data were processed

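The deposited table held counts of CAGE tags by position and strand for 3 sirD and 3 control libraries of rice koji, matched to samples by description. FastQC, BWA and bedtools were used by the authors, per the submitters' processing notes. Versions, mapping settings, genome build and the handling of reads with several matches: not given in the sources used here. Positions counted from 0, and 1 was added. The table has 1048575 rows and stops inside a scaffold, so its totals are not library depths.

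The members, lists and rules were chosen with earlier results of these data known. Clusters of the whole table, and contig sums beside the clusters of the other sequences, were filtered with filterByExpr, scaled by TMM and tested in R 4.3.3 with limma 3.58.1 and the quasi-likelihood test of edgeR 4.0.16, with no covariate. Benjamini-Hochberg adjustment ran over all features tested, and calls were made below 0.05. SE is the log2 difference divided by the square root of F. Usage was tested at positions with at least 10 tags by diffSpliceDGE, with Simes p per cluster. Shares were compared by two-sided exact permutation tests over libraries in Python 3.11.15. The fits were tested on simulated data. Named were the 6 leading contigs and the 8 next, every called cluster, edge clusters (at most 8 a side) and clusters with changed usage. Contigs called as sums only and the stretches of starts bound to single libraries were named after their values were seen. Alternatives were DESeq2 1.42.0, other scalings, filters, joining distances and thresholds, the replicate number as a block, and each library left out. Leaving out the 7th contig was chosen after seeing the data. Intervals and limits for a count of 0 (3 counts of the total) cover counting error only.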

Additional observations from a re-analysis of the deposited data

Results flagged for a closer look

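The comparisons of clusters left out 2 sets of short-contig tags. Positions with a single tag over all libraries belong to no cluster and held 5548 tags, with 787, 972 and 1081 in sirD, against 855, 1069 and 784 in control. They made up 0.0563% ± 0.0118 of the short-contig tags in sirD and 0.0583% ± 0.0108 in control (SD, n = 3 each, two-sided exact permutation test, p = 0.9).

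The 696 short-contig clusters under the filter on low counts held 7968 tags, with 1796, 978 and 1147 in sirD, against 2203, 979 and 865 in control. Their share was 0.0760% ± 0.0187 in sirD and 0.0877% ± 0.0502 in control (SD, n = 3 each, two-sided exact permutation test, p = 1.0). They are listed because they are tags outside the main comparison.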

How the results depend on the processing

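The 25 changed short-contig clusters numbered 15 when a change of at least 2-fold was also required, and the 22 changed contigs numbered 13 at an adjusted p below 0.01, with the same counts outside the leading 6. Under the other settings run, cluster counts were 17 to 34 and contig counts 15 to 24. The shares called over all features under those settings are not given, so these ranges say nothing particular to the short contigs. Clusters with changed usage were 1 to 3 with a library left out, and which clusters they were differed. With no filterByExpr, the cluster at 80 to 264 of BACL01001245.1 lost its usage call (adjusted p = 0.866), while those at 286 to 466 of that contig and at 31 to 535 of BACL01001188.1 gained one (3.55e-11 and 0.0283). The share of tags on the short contigs differed by 0.341 points and reversed to −0.0108 without the sequence AP012272.1. Leaving out a library gave −1.07 to 1.79.

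Of 45 named clusters and contigs, 30 were called, none of these reversed, and 13 lost their call at least once (58 of 457 combinations). The 7 that reversed were never called. Contig sums with a library left out gave −0.13 to 0.15 for BACL01001099.1, −0.0512 to 0.126 for BACL01001188.1, −0.000485 to 0.13 for BACL01001136.1, −0.0709 to 0.132 for BACL01001574.1, −0.179 to 0.0226 for BACL01001586.1 and −0.0743 to 0.101 for BACL01001369.1. The cluster of BACL01001372.1 gave −0.205 to 0.0484. BACL01001099.1 was −0.00438 under total-count scaling. BACL01001369.1 was 0.0188 without the leading 6, 0.0158 with DESeq2 size factors or the DESeq2 test and 0.0174 with scaling from the other sequences. The causes were not tested.

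Equal replicate numbers did not pair the libraries by the set rule, as their deviations correlated at 0.0937, 0.0590 and 0.0418. Libraries of unequal number correlated at −0.0962 to 0.0458, mostly below 0, so a weak pairing is not excluded. With the replicate block, 28 clusters and 24 contigs were called, again without a share over all features, and BACL01001099.1 was −0.00126 as a sum. Usage changed in 2 clusters under the block. BACL01000586.1 at 1477 to 1668 was called (edgeR diffSpliceDGE adjusted p = 0.00271), and BACL01001099.1 was not (edgeR diffSpliceDGE adjusted p = 0.583).

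The table is a part of the libraries, contig lengths were not at hand, and reads that match several contigs cannot be told apart here. At a few tags per library, as on most of the contigs, a difference between strains was not detectable.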
